A study of Mus musculus with 2 samples.

Results

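The aryl hydrocarbon receptor AHR, its partners and its classical target genes were followed in mouse ureters treated with BIO. The 10 genes were taken by name from the probe annotation of the arrays and comprised Ahr, its dimer partners Arnt and Arnt2, the repressor Ahrr and the targets Cyp1a1, Cyp1a2, Cyp1b1, Tiparp, Nqo1 and Aldh3a1. They were represented by 16 of the 39429 biological probes, or 10 of 29875 genes. Ureters of wildtype NMRI embryos at E12.5 were grown as explants for 18 h, with 10 µM BIO or, as control, with the solvent DMSO at 2 parts per 1000. BIO (6-bromoindirubin-3-oxime) inhibits the kinase GSK3 and served to activate WNT signaling. RNA from pools of ureters was compared on 2 two-color arrays, and control and BIO RNA were hybridized together on each. BIO RNA was red in replicate 1 and green in replicate 2. An explant holds epithelium, mesenchyme and the vessels and blood cells carried over with them, so every value is an average over the whole ureter.

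AHR is a ligand-activated transcription factor of the bHLH-PAS family. Without ligand it sits in the cytosol with HSP90 and other chaperones, and after ligand binding it enters the nucleus, pairs with ARNT and binds DNA with the core GCGTG. Its best known targets encode the CYP1 monooxygenases, which oxidize the ligands, and the feedback inhibitors AHRR and TIPARP. Indirubins, the class of compounds that BIO belongs to, are known as AHR ligands. This is background and was not measured here.

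The sequences before the start of the 4 genes whose expression rose with BIO (Ahrr, Cyp1a1, Cyp1b1 and Tiparp) are shown first, picked by that rise. Each holds the letters that AHR and ARNT recognize, as does that of Arnt, which did not rise and is not printed. Each run holds the 250 bases before the RefSeq start (build GRCm38.p6), from 5′ to 3′ on the strand of the gene. Capitals mark GCGTG, or CACGC where it lies on the opposite strand. The stretches lie at chr9:57697363-57697612 (plus strand) for Cyp1a1, chr17:79715062-79715311 (minus strand) for Cyp1b1, chr13:74292332-74292581 (minus strand) for Ahrr and chr3:65528197-65528446 (plus strand) for Tiparp.

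Cyp1a1: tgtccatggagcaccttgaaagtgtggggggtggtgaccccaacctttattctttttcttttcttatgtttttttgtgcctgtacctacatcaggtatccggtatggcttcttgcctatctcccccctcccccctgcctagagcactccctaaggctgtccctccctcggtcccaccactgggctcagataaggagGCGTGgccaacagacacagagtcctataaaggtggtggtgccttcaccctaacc
Cyp1b1: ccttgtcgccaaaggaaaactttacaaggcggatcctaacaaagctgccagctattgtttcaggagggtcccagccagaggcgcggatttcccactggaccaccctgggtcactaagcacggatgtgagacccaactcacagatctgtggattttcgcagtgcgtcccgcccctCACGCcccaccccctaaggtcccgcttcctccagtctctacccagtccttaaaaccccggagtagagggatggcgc
Ahrr: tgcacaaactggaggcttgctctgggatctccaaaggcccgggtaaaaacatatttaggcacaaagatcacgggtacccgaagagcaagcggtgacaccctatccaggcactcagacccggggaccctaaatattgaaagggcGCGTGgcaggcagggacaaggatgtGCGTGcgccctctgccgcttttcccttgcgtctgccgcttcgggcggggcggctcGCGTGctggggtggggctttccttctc
Tiparp: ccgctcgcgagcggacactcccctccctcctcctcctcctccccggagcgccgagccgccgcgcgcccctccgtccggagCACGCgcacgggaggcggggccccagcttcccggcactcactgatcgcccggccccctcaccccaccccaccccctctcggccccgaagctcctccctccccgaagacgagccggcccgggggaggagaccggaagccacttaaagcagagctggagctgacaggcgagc

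In the sequence of Cyp1a1, the core began 54 bases before the start. The core of Cyp1b1 began 76 bases and that of Tiparp 170 bases before the start, both on the opposite strand. Ahrr had 3 cores, beginning 107, 82 and 27 bases before the start. The last of these lay within the longer form TNGCGTG, the letters usually given for a dioxin response element. Windows of 300 bases, 250 before and 50 after the start, were on hand for 8 of the 10 genes (all but Ahr and Aldh3a1). On either strand, 5 of these 8 windows held GCGTG and 1 held TNGCGTG, which contains it. The fifth window was that of Arnt, with its core beginning 29 bases before the start. Neither form was found in the windows of Arnt2, Cyp1a2 and Nqo1. Among all 32851 mouse windows of this length, 32.4% held GCGTG and 5.07% held TNGCGTG. A match describes these letters only, and the known enhancer of Cyp1a1 lies further upstream than this window.

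Expression of 4 of the 10 genes rose with BIO, and none fell. These were Cyp1a1, Cyp1b1, Ahrr and Tiparp, with mean log2 ratios (BIO over control) from 1.58 to 2.55. Expression of Ahr, Arnt and Arnt2 changed by no more than 0.06 on the log2 scale and did not pass the test. Nqo1 and Aldh3a1 were not called either, and Cyp1a2 was not above background in any channel. A gene was read at its probe with the highest mean intensity and was called when its adjusted p in limma's moderated test over all tested probes (Benjamini-Hochberg) was below 0.05. Of 21574 genes tested in this way, 9.13% rose and 14.8% fell, against 4 and 0 of the 9 tested members. The median log2 ratio was 0.30 over the 9 tested members (0.38 in replicate 1, 0.53 in replicate 2) and -0.01 over all tested genes. Each member median is the value of Nqo1 or Aldh3a1, neither of which was called, so it describes no typical member. When the rounded score table that the authors also deposited was tested in place of the scanner intensities, 2 of the 4 calls were lost, those of Cyp1a1 (log2 ratio 2.66; limma adjusted p 0.117) and Ahrr (2.17; limma adjusted p 0.123). Those of Cyp1b1 and Tiparp were kept, at limma adjusted p of 0.0497 and 0.0478. Of all tested genes, 8.94% rose with these scores.

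**Figure D1:**
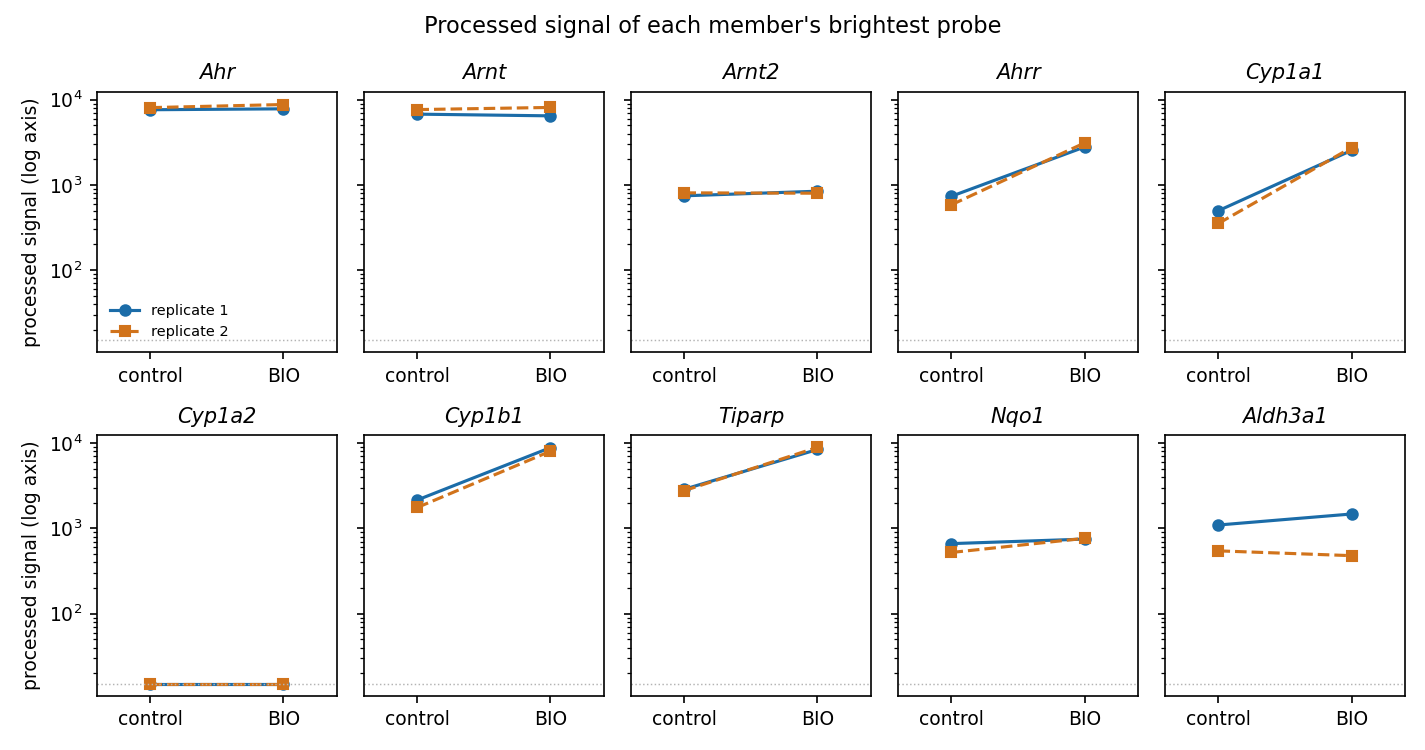
Processed signal of the brightest probe of each of the 10 genes on a log axis, in control and BIO RNA, with 1 line per array (solid, replicate 1; dashed, replicate 2) and a dotted line at the floor of 15. The lines of Ahrr, Cyp1a1, Cyp1b1 and Tiparp climb on both arrays, those of Ahr, Arnt and Arnt2 stay level, and Cyp1a2 lies at the floor; signals of different probes cannot be set against each other.

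Cyp1a1 encodes a monooxygenase of polycyclic aromatic compounds and is the standard readout of AHR activity. Its processed signal (the scanner software's signal after background subtraction and dye normalization) was 498 in control and 2537 in BIO RNA of replicate 1, and 353 in control and 2740 in BIO RNA of replicate 2. On each array BIO was far above its control, with a ratio of signals of 5.09 in replicate 1 and 7.76 in replicate 2. After normexp and loess, the log2 ratio reached 2.32 in replicate 1 and 2.78 in replicate 2. Its mean was 2.55 ± 0.13 (SE, n = 2 arrays; limma adjusted p 3.24e-05). This was the 9th highest of the 21574 tested genes. The probe is spotted 4 times, and the 3 spots that were kept on each array ranged from 2.25 to 2.35 in replicate 1 and from 2.76 to 2.79 in replicate 2. The difference between the arrays was therefore larger than that between spots of 1 array. The probe of Cyp1a1 (NM_009992) lies on chromosome 9 at 57551535 to 57551594 of mm9.

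Cyp1b1, whose enzyme oxidizes estrogens, retinoids and aromatic compounds, had a processed signal of 2155 in control and 8851 in BIO RNA of replicate 1. In replicate 2, the signal was 1759 in control and 8045 in BIO RNA. BIO was thus the higher channel on each array. The log2 ratios were 2.01 and 2.16, and their mean was 2.09 ± 0.11 (SE, n = 2; limma adjusted p 3.31e-05), the 15th highest of all tested genes. The probe (NM_009994) is on chromosome 17 at 80106547 to 80106606 of mm9. Cyp1a2, the third CYP1 enzyme and a gene best known from liver, differed from both. On none of the 4 channels was its only probe (NM_009993, chromosome 9, 57528060 to 57528119) well above background, and all its processed signals were at the floor of 15, so no fold change is given. Cyp1a1 and Cyp1a2 are head-to-head neighbors on this chromosome.

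Both feedback inhibitors rose. Ahrr, which competes with AHR for ARNT, had a processed signal of 735 in control and 2778 in BIO RNA of replicate 1. In replicate 2, the signal was 584 in control and 3101 in BIO RNA. The log2 ratios were 1.82 and 2.33, and their mean was 2.08 ± 0.14 (SE, n = 2; limma adjusted p 7.91e-05), the 16th highest of all tested genes. This probe (NM_009644) lies on chromosome 13 at 74348566 to 74348612 of mm9. A further Ahrr probe for the same transcript (chromosome 13, 74350685 to 74350744) was dimmer and rose as well, with log2 ratios of 1.53 and 1.59 (mean 1.56 ± 0.11, SE, n = 2; limma adjusted p 8.50e-05). Its processed signals were 64.5 and 55.4 in control against 246 and 239 in BIO RNA. In replicate 1, the ratios of processed signals of both probes were close, 3.78 and 3.81. In replicate 2, they were 5.31 and 4.32.

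Tiparp encodes a mono-ADP-ribosyltransferase that modifies AHR and promotes its loss. Its processed signal was 2881 in control and 8422 in BIO RNA of replicate 1, with 2774 and 8923 in replicate 2, so BIO was again higher on each array. It changed by log2 ratios of 1.49 and 1.67, and their mean was 1.58 ± 0.11 (SE, n = 2; limma adjusted p 9.63e-05), the 32nd highest of all tested genes. The probe (NM_178892) lies on chromosome 3 at 65358749 to 65358808 of mm9. Its other probe (chromosome 3, 65357710 to 65357769) gave log2 ratios of 1.31 and 1.80 (mean 1.56 ± 0.14, SE, n = 2; limma adjusted p 2.18e-04). The means of both Tiparp probes thus differed by less than either SE.

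All 6 called probes of these 4 genes had the larger log2 ratio in replicate 2, where BIO RNA was green, by 0.06 to 0.52. Among all 1970 risen genes, 53.6% were larger in replicate 2. Since the dye and the pool of ureters changed together between the arrays, dye and pool cannot be told apart here.

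**Figure D2:**
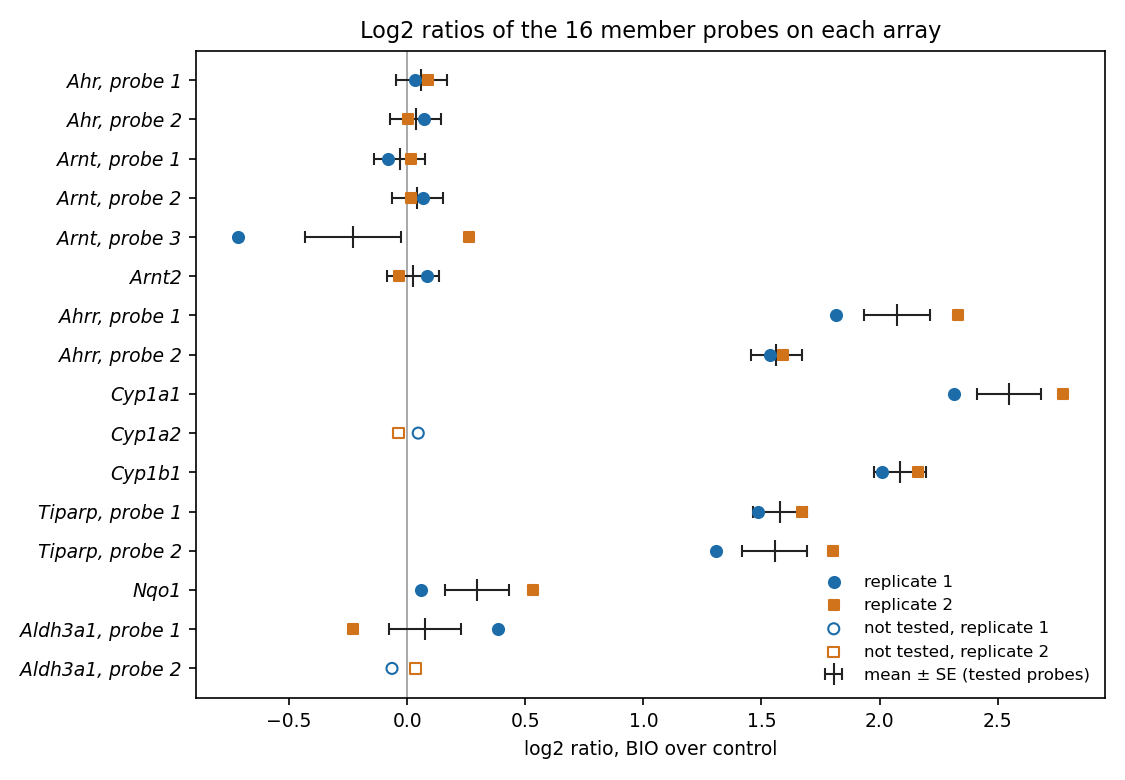
Log2 ratio of BIO over control for each of the 16 probes of the 10 genes (circles, replicate 1; squares, replicate 2; black bar, mean ± SE over 2 arrays; open symbols, probes that were not tested). The 6 probes of Ahrr, Cyp1a1, Cyp1b1 and Tiparp lie at 1.31 or above on both arrays, and the probes of Ahr, Arnt probes 1 and 2 and Arnt2 lie within 0.09 of 0.

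The receptor itself kept its signal. The brighter Ahr probe (NM_013464, chromosome 12, 36182724 to 36182783 of mm9) had a processed signal of 7604 in control and 7796 in BIO RNA of replicate 1, and 8054 and 8755 in replicate 2. BIO was slightly the higher channel on each array, and the values of both groups overlapped between the arrays. The log2 ratios were 0.03 and 0.09, and their mean was 0.06 ± 0.11 (SE, n = 2; 95% interval -0.19 to 0.31; limma adjusted p 0.746). The other Ahr probe (chromosome 12, 36188523 to 36188582) had log2 ratios of 0.07 and 0.00, with a mean of 0.04 (95% interval -0.21 to 0.29; limma adjusted p 0.850). Both intervals leave out a change of Ahr of the size seen for its 4 risen targets, but not a small one.

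Arnt, the obligate partner of AHR and also of the hypoxia factors, had 3 probes. The brightest (NM_001037737, chromosome 3, 95301081 to 95301140) had a processed signal of 6752 in control and 6448 in BIO RNA of replicate 1, and 7638 and 8093 in replicate 2. Its mean log2 ratio was -0.03 (95% interval -0.28 to 0.22; limma adjusted p 0.868), and that of the next was 0.04 (95% interval -0.21 to 0.29; limma adjusted p 0.825). The third and dimmest, designed on a separate Ensembl transcript and lying upstream of the others at 95264558 to 95264617, gave -0.72 in replicate 1 and 0.26 in replicate 2. With processed signals from 38.5 to 73.2, it does not settle a direction (mean -0.23; limma adjusted p 0.472). Arnt2, a paralog of Arnt (NM_007488, chromosome 7, 91395682 to 91395741), had signals of 744 in control and 842 in BIO RNA of replicate 1, with 806 and 798 in replicate 2. Between the arrays the sign of the log2 ratio turned, from 0.08 to -0.03, and the mean was 0.02 (95% interval -0.23 to 0.28; limma adjusted p 0.906).

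The last 2 targets, Nqo1 and Aldh3a1, were not called. Nqo1, the quinone reductase that both AHR and the stress factor NRF2 control, had a processed signal of 662 in control and 748 in BIO RNA of replicate 1, and 521 and 764 in replicate 2. BIO was the higher channel on both arrays, but by unequal log2 ratios, 0.06 in replicate 1 against 0.53 in replicate 2. The mean of 0.30 ± 0.14 (SE, n = 2; 95% interval -0.02 to 0.61) had a limma adjusted p of 0.158. The probe (NM_008706) lies on chromosome 8 at 109912440 to 109912499 of mm9.

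Aldh3a1, an aldehyde dehydrogenase induced by dioxin in liver cells, had a processed signal of 1095 in control and 1474 in BIO RNA of replicate 1, and 544 and 478 in replicate 2. Both channels of replicate 1 were thus brighter than both channels of replicate 2, so the arrays differed by more than the treatment. The log2 ratios had opposite signs, 0.38 in replicate 1 against -0.23 in replicate 2, and their mean was 0.08 ± 0.15 (SE, n = 2; 95% interval -0.27 to 0.43; limma adjusted p 0.772). This probe (NM_007436) lies on chromosome 11 at 61031857 to 61031916 of mm9. Another probe for the same transcript (chromosome 11, 61031864 to 61031920) nearly coincides with it but was above background only in the green channel of each array, so it was not tested.

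By the intensity and fold rule, which asks for a signal of at least 100 in the brighter channel and at least a 2-fold difference in the same direction on both arrays, the same 4 genes were higher with BIO and none was lower. This rule has no test. Of all 21574 tested genes, it picked 1.04% as higher and 2.04% as lower. At a minimum of 3-fold, 3 of the members were left, and the share of all genes at that minimum was not computed. Tiparp, at 2.92 and 3.22, was the gene just outside.

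**Figure D3:**
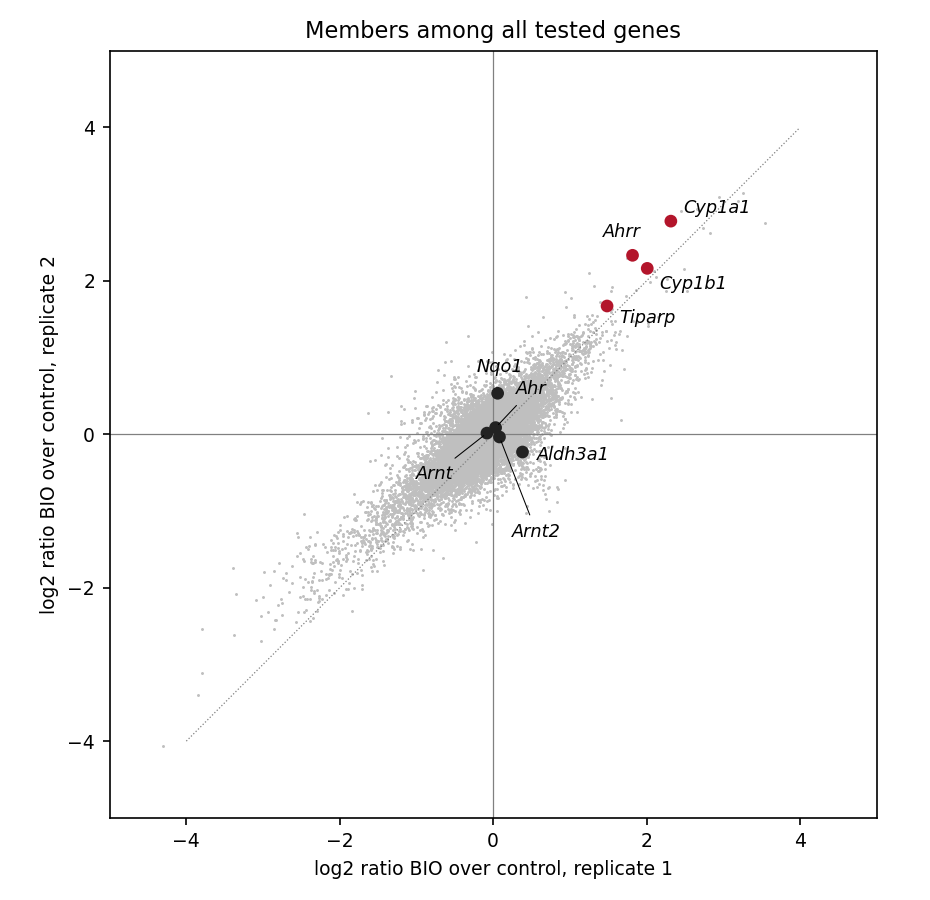
Log2 ratio of BIO over control in replicate 1 (x axis) and replicate 2 (y axis) for the 21574 tested genes (gray) and the 9 tested members (red, called; black, not called; dotted line, equal ratios). Cyp1a1, Cyp1b1, Ahrr and Tiparp lie at the upper right end of the cloud, ranked 9, 15, 16 and 32 by their mean. Ahr, Arnt and Arnt2 lie in its center, and Nqo1 (0.06 and 0.53) and Aldh3a1 (0.38 and -0.23) lie off it.

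The 3 genes outside the members nearest to Cyp1a1 in both log2 ratios were Cdkn2b (2.45 and 2.91), Sp5 (2.66 and 2.94) and Nr1h5 (2.74 and 2.69). Sp5 is a direct WNT target, Cdkn2b encodes a cell cycle inhibitor and Nr1h5 a nuclear receptor. No gene lay within 0.1 of Cyp1a1. In contrast, 1802 genes lay within 0.1 of Ahr, and the nearest of them, 4930474H20Rik and the unnamed probes A_55_P1971679 and NAP111903-1, were no more than examples of genes near 0. Likeness was the Euclidean distance over 2 arrays only.

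The genes of 9 further lists gave a different picture from the 4 risen members. Not all belong to the AHR pathway: 15 are other bHLH-PAS factors, 11 NRF2 genes, 12 PARP enzymes and 10 other aldehyde dehydrogenases. Of the 92 genes, 89 were on the array by name and 82 were tested. Of these 82, 6 rose and 20 fell, with a median log2 ratio of -0.04. The background of all tested genes was the 9.13% risen and 14.8% fallen given above. With processed signals in place of normexp and loess, 3 rose and 8 fell, beside 3.69% and 5.22% of all tested genes under that setting.

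None of the 5 chaperones and none of the 10 coactivators and corepressors of AHR and ARNT was called. Log2 ratios of the coactivators and corepressors ranged from -0.16 to 0.22. Hsp90aa1 and Hsp90ab1, the HSP90 genes, had log2 ratios of 0.13 (limma adjusted p 0.449) and 0.15 (limma adjusted p 0.503). Of 13 tested bHLH-PAS factors, 3 fell (Epas1, Arntl and Npas3) and none rose. Epas1, the hypoxia factor HIF2A, had processed signals of 8464 and 9882 in control against 1709 and 3601 in BIO RNA. Its log2 ratio of -1.88 (limma adjusted p 3.54e-04) stood against -0.20 for Hif1a (limma adjusted p 0.301). Arntl, the clock partner of CLOCK, fell by 0.63 on the log2 scale (limma adjusted p 0.00820; 0.0699 with processed signals and 0.197 by the deposited scores).

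Among 17 further genes described as AHR targets, mostly in other tissues, 14 were on the array by name, 13 were tested, 1 rose and 7 fell. With processed signals 3 fell, and by the deposited scores 1, beside 5.22% and 6.11% of all tested genes. The list's median log2 ratio was -0.40, against -0.01 for all tested genes. The fallen genes included Scin, Cyp2s1, Socs2, Gsta2, Hes1 and Lpxn. Scin, which encodes an actin-severing protein, had processed signals of 1547 and 1574 in control against 202 and 258 in BIO RNA. The log2 ratios were -2.86 and -2.54 (mean -2.70; limma adjusted p 3.08e-05), as large a difference as that of Cyp1a1 and in the opposite direction. Cyp2s1, a further P450 gene, fell by 1.34 on the log2 scale (limma adjusted p 7.59e-04; 0.0540 with processed signals and 0.229 by the deposited scores). Xdh, which encodes xanthine dehydrogenase, was the only one that rose, by 0.40 (limma adjusted p 0.0307), at processed signals of at most 35.5. Its call was lost with median centering (adjusted p 0.221) and by the deposited scores (adjusted p 0.197). Ugt1a6a, a glucuronidation enzyme and a member of the classical AHR battery, had a log2 ratio of -0.03 (limma adjusted p 0.880) at signals of at most 35.7, and a probe annotated to its near-identical neighbor Ugt1a6b was at -0.03 in replicate 1 and 0.81 in replicate 2.

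**Figure D4:**
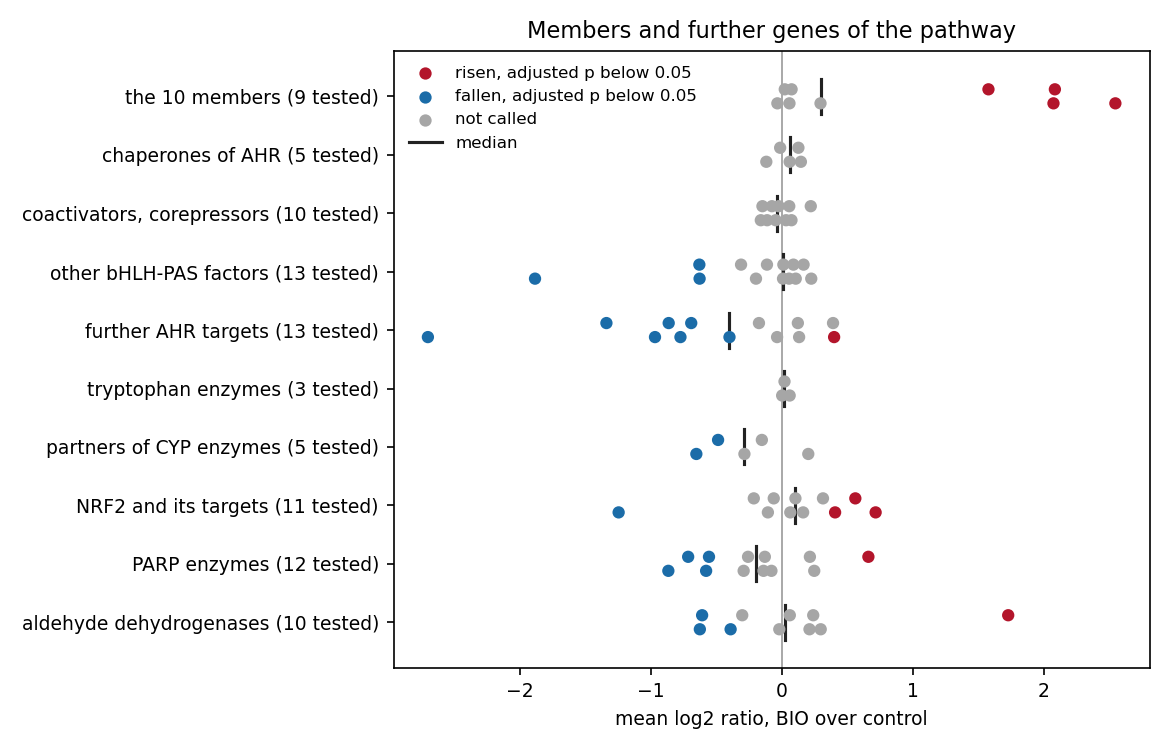
Mean log2 ratio of BIO over control of the tested members and of the tested genes of 9 further lists (red, risen; blue, fallen; gray, not called; black bar, median of the list). The 4 risen members lie between 1.58 and 2.55, only Aldh1a3 of the further genes reaches this range, and the further AHR targets are mostly at negative values down to -2.70.

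None of the enzymes that make or break down tryptophan-derived AHR ligands was called, and only 3 of 7 (Kmo, Il4i1 and Afmid) were tested. Ido1, Ido2, Tdo2 and Kynu were not well above background on both arrays of either group, and all their processed signals were at the floor. Of 5 partners of microsomal CYP enzymes, 2 fell and none rose. Por, which hands electrons to all these enzymes, had a log2 ratio of 0.20 (limma adjusted p 0.237), whereas Cyb5r3, which reduces cytochrome b5, fell by 0.65 (limma adjusted p 0.00406) and Cyb5a by 0.49 (limma adjusted p 0.0279). The call of Cyb5a was lost in 4 of 9 other settings, with adjusted p from 0.0505 to 0.312.

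The NRF2 list was examined beside Nqo1, and 3 of its 11 genes rose and 1 fell. Osgin1 rose by 0.72 (limma adjusted p 0.00252), Maff fell by 1.24 (limma adjusted p 3.95e-04), and Nfe2l2, the gene of NRF2, was at -0.06 (limma adjusted p 0.751). Among 12 PARP enzymes related to TIPARP, Parp9 rose by 0.66 (limma adjusted p 0.0152) and 4 fell, led by Parp12 with -0.87 (limma adjusted p 0.00112). The log2 ratios of Parp9 were 0.37 and 0.96, and its call was lost in 3 of 9 other settings (adjusted p 0.0834 to 0.256). No tested relative on this list reached the log2 ratio of 1.58 of Tiparp. Among 10 aldehyde dehydrogenases beside Aldh3a1, Aldh1a3, a retinoic acid synthesizing enzyme, rose by 1.73 (limma adjusted p 1.04e-04) and 3 fell, led by Aldh3b1 with -0.62 (limma adjusted p 0.00589).

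WNT feedback targets checked the treatment and rose in 5 of 5 cases. Axin2, the standard readout, had a log2 ratio of 2.15 (limma adjusted p 3.41e-05). BIO was given as 1 compound at 1 dose and 1 time, and its binding to AHR was not measured. Any parts of GSK3 inhibition and of AHR binding in the rise of Cyp1a1, Cyp1b1, Ahrr and Tiparp cannot be told apart in these samples. Markers of the cell types moved as well. Endothelial markers fell in 8 of 8 cases, with summed processed signals of 28598 and 34430 in control against 5317 and 9919 in BIO RNA. Markers of ureteric mesenchyme and epithelium fell in 6 of 8 cases each, and their summed signals were 244789 and 268353 against 154075 and 169612, and 74938 and 76164 against 40733 and 48133. Tbx18 of the ureteric mesenchyme and Epcam of the epithelium were present in all channels. Each is 1 of the 2 markers on its list that were not called. Macrophage markers fell in 4 of 6 tested cases (summed signals 4421 and 5174 against 2645 and 4000) and smooth muscle markers in 4 of 5 (12205 and 12733 against 5269 and 5789). The largest fall within each of these 5 lists was that of Kdr (-2.63, endothelium), Pdgfrb (-2.17, mesenchyme), Upk3a (-1.98, epithelium), Cx3cr1 (-1.75, macrophages) and Acta2 (-1.63, smooth muscle). Of the kidney markers, Wt1 rose (0.58) and Foxd1 fell (-0.60), and the call of Wt1 was lost in 6 of 9 other settings. The summed signals of the 6 kidney markers were 27644 and 29144 in control against 24837 and 25805 in BIO RNA. Whether kidney tissue was carried over was not tested. Of the 4 liver markers, Ttr and Serpina1a were at or next to the floor in all channels and Alb was at no more than 44.8, whereas Apoa2 had signals of 1538 and 994 in control against 2032 and 877 in BIO RNA and was not called (limma adjusted p 0.720). In such bulk samples, fewer cells of a type and less RNA per cell cannot be told apart, and the part of these cell type shifts in the values of the members was not tested.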

How the data were processed

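RNA of pooled explants was hybridized to Agilent mouse arrays of 60-base probes, and per the file headers the authors quantified 174979 spots per array with Agilent Feature Extraction 10.7.3.1 (157716 biological). The deposited tables hold mean spot intensity and median local background intensity, without normalization, and processed intensity, background-subtracted and dye-normalized by the software. The authors also deposited a table of scores with 1 decimal and of unstated making. The scores followed the BIO over control ratio, as a signed fold (r = 0.970 and 0.974 with the log2 ratios used here). With the log2 ratios of processed signals, r was 0.988 and 0.984. For Ahrr probe 1 the scores were 3.8 and 5.3, beside processed ratios of 3.78 and 5.31. Direction and scale were read from such values. The scores are thus close to the processed ratios and are no separate measurement. Their centering is unknown, and the median of each column was 1. The dyes of each array were given in the labels.

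With limma 3.58.1 in R 4.3.3, intensities were corrected by normexp (offset 50) and log2 ratios normalized by loess within each array, with control spots and outliers (3.49% and 3.16% of spots) left out. No spot was saturated. Spots of a probe were averaged, the ratios turned to BIO over control and tested against 0 (lmFit, eBayes, two-sided, Benjamini-Hochberg over 28824 probes), without a dye term, for which 2 arrays leave no degree of freedom. A probe was tested when more than 0.5 of its kept spots were well above background in one group on both arrays. Well above background were 80.9% and 73.7% of biological spots in control and 70.1% and 78.1% in BIO RNA. Precision is limited by the number of arrays, and SEs and p-values rest on a variance that limma moderates toward all probes (7.14 prior and 8.14 total degrees of freedom), so that an SE can exceed the spread between the 2 arrays of a probe. The arrays stand for separate pools according to the study's methods. Slide and scan were shared by both arrays. Processed signals were floored at 15, and for the intensity and fold rule their ratios were centered on the median of each array. The test was also run on simulated pairs drawn from the kind of model it assumes, without dye or array effects. That run checks the code only and not the fit of the model to these arrays.

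Probe positions are those of mm9 in the files. Gene names of other genes were updated through RefSeq (GRCm38.p6) by accession or symbol, and promoter windows came from RefSeq of that build. Every member was named with all its probes. Of each further list, the called genes with the largest rise and the largest fall were named, beside Hsp90aa1, Hsp90ab1, Hif1a, Epas1, Arntl, Nfe2l2, Por, Scin, Ugt1a6a and Axin2 and the 3 genes nearest to Cyp1a1 and to Ahr. Npas3, Cyp2s1, Socs2, Gsta2, Hes1, Lpxn, Ugt1a6b, Cyb5a, the enzymes at the floor and the markers Tbx18, Epcam, Ttr, Serpina1a and Apoa2 were named after their values were seen. The members, lists and tests were chosen with earlier results of these data known. Identity between member proteins was not analysed here, and some genes of the lists are not reported here by name. Alternatives to the background correction, normalization, filter, spot averaging, prior and adjustment, and leaving out each array, are given in the closing section.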

Additional observations from a re-analysis of the deposited data

How the results depend on the processing

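Over the 14 tested probes of the 10 genes, 121 values were recomputed under 9 other settings, of which 112 kept direction and side of the threshold, counting the score of Arnt probe 1, which gave exactly 0. With the deposited score table, the rises of Cyp1a1 (2.66, limma adjusted p 0.117), Ahrr probe 1 (2.17, adjusted p 0.123) and Tiparp probe 2 (1.61, adjusted p 0.150) missed the threshold and Arnt probe 2 passed it (0.14, adjusted p 0.0478), so that 2 members were called as risen in place of 4. Of all tested genes, 8.94% rose and 6.11% fell with these scores. The 2 kept calls, of Cyp1b1 and Tiparp probe 1, had limma adjusted p of 0.0497 and 0.0478. The scores are rounded to 1 decimal. The other 8 settings with a test called 4 members as risen, and none as fallen, beside 3.69% to 10.1% of all tested genes risen. With processed signals these 4 calls passed narrowly, each with a limma adjusted p of 0.0354 at the brightest probe. Signs of values near 0 turned with median centering in place of loess for Ahr probe 2 (-0.095), Arnt probe 2 (-0.061), Arnt2 (-0.091) and Aldh3a1 probe 1 (-0.039), and with processed signals for Arnt probe 1 (0.0086). None of these was called. The median of the tested members was 0.17 with median centering, and 0.38 to 0.53 with 1 array alone. Over the other settings, Cyp1a1 ranged from 2.44 to 2.66 and Nqo1 from 0.17 to 0.36.

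Of the 82 tested genes of the 9 further lists, 3 rose with processed signals and 3 with median centering in place of 6. Of all tested genes, 3.69% and 3.83% rose under these settings, against 9.13% in the main fit. In place of 20, 8 fell with processed signals and 6 by the deposited scores. Of all tested genes, 5.22% and 6.11% fell under these settings, against 14.8% in the main fit. For 38 of the further genes named in the text, no value of 342 turned its sign, counting scores of exactly 0 for Ugt1a6a and Epcam. Of their calls, 42 were lost, 23 by the deposited scores, 10 with processed signals, 5 with median centering and 4 in another setting. By the deposited scores, the lost calls included Epas1, Scin, Cyb5r3, Maff, Parp12, Aldh1a3, Aldh3b1 and Axin2. Of the further AHR targets, 3 fell with processed signals and 1 by the deposited scores, in place of 7. The shares of all tested genes that fell are those given above. Over all genes, 5154 calls (1970 risen, 3184 fallen) became 1923 with processed signals, 2766 under median centering and 3248 (1929 risen, 1319 fallen) by the deposited scores. The cause was not tested. By the intensity and fold rule, 4 members were higher on either array alone (4 to 4). The share of all genes past the rule on 1 array was not computed. With 1 array left out no residual degree of freedom remains, so counts of calls were not recomputed. No paired analysis was possible because each array already holds 1 control and 1 BIO RNA and its ratio is the pair. Where probes are dim, as for Arnt probe 3, Cyp1a2 and Aldh3a1 probe 2, signal over background sets the limit.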
